A study of Homo sapiens with 9 samples.

Results

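The heat shock chaperones examined were 10 human genes, HSPA1A, HSPA1B, HSPA8, HSPH1, DNAJB1, BAG3, HSP90AA1, HSP90AB1, HSPD1 and HSPB1. They were chosen by name, as inducible and constitutive chaperones of the cytosol, with their co-chaperones and 1 mitochondrial chaperonin. All 10 were found by Entrez number among the 16750 genes of the deposited expression table, and all 10 passed the filter on low values, which 14554 genes passed. RNA was sequenced from PANC-1, an established human cell line from a carcinoma of the pancreatic duct. The cells had been transduced with lentivirus carrying no insert (the vector group), SLC22A10 (SLC22A10_OE) or SLC22A15 (SLC22A15_OE), both transporter genes of the organic ion family. Each group had 3 libraries, and all groups, vector included, had been selected with puromycin at 1 µg/ml for 2 weeks and then kept in puromycin at 0.5 µg/ml with 10% serum, within 10 passages. The labels speak of clones without saying how many each group holds, so that the effect of a transgene and the history of a line cannot be told apart. They do not say whether the 3 libraries came from separate cultures either, so p-values here rest on a spread between libraries that could be technical only.

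Heat shock proteins bind unfolded or partly folded proteins and keep them from aggregating. HSP70 proteins work in cycles of ATP hydrolysis started by J-domain partners and ended by nucleotide exchange factors, and hand clients such as kinases and steroid receptors to HSP90. Cells raise the inducible members within minutes of heat or proteotoxic stress through the transcription factor HSF1, which binds heat shock elements, arrays of short alternating GAA and TTC units, near their promoters. Tumour cells, pancreatic carcinoma lines among them, often hold high levels of HSP90 and of the constitutive HSP70.

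The heat shock element letters found before the starts of these genes are shown first, since HSF1 is known to act through such elements. In RefSeq promoter windows on GRCh38.p14, taken here as the 250 bases before each annotated start, 2 motif lengths were searched, GAANNTTC or TTCNNGAA for 2 units and GAANNTTCNNGAA or TTCNNGAANNTTC for 3 units. The 2 spellings of the longer form are reverse complements of each other and each spelling of the shorter form is its own, so both strands are covered, and every 3-unit match contains 2-unit matches. The 2-unit form was found before at least 1 start of 8 of the 10 genes and the 3-unit form before at least 1 start of 4 (HSPA8, HSP90AA1, HSP90AB1 and HSPD1). Over all 35116 windows of that length the shares were 11.6% and 0.441%. These are shares of windows, and a gene with several starts has several windows, so they are not directly comparable with the counts of genes. Of the windows of the 10 genes, 16 in all because some genes have several starts, 4 held the 3-unit form. HSPH1 and BAG3 had neither form in these windows, which says only that these letters are not there. The 30 bases around the longest match of each gene follow, or around the one nearest the start where HSPA8, HSP90AB1 and DNAJB1 had a pair of equal length, read towards the gene, with the matched units in capitals.

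HSPA8: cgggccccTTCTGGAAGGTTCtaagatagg
HSP90AA1: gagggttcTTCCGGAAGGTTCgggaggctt
HSP90AB1: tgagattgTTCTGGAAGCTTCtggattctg
HSPD1: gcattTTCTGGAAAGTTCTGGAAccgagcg
HSPA1A: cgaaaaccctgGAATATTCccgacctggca
HSPA1B: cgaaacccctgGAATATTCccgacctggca
DNAJB1: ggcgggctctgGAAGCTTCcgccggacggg
HSPB1: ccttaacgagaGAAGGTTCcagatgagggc

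These stretches lie at chr11:123062170-123062199 (minus strand), chr14:102087111-102087140 (minus), chr6:44247823-44247852 (plus), chr2:197500061-197500090 (minus), chr6:31815426-31815455 (plus), chr6:31827622-31827651 (plus), chr19:14518426-14518455 (minus) and chr7:76302480-76302509 (plus), in the order printed. The match of HSPA8 begins 55 bases before the start, that of DNAJB1 47, that of HSP90AA1 88 and that of HSPB1 182. For HSP90AA1, HSP90AB1, HSPD1 and DNAJB1 the window belongs to 1 of several annotated starts. In each of these genes the match lies downstream of another annotated start, and the other windows held neither form. HSPB1, which was higher in both overexpressing lines, and HSPA1A, which was lower in SLC22A10_OE, each have a single 2-unit match.

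Across the set, HSPB1 was the 1 gene called higher in SLC22A10_OE and the other 9 were called lower, where a gene is called when its Benjamini-Hochberg adjusted p from limma, over all 14554 genes, is under 0.05. Changes were common in this comparison, with 34.7% of all genes tested called higher and 32.5% called lower, so 10 calls in 10 genes are to be read against that background. The median log2 fold change of the 10 genes was -0.38, against 0.00 for all genes tested. In SLC22A15_OE 4 of the 10 were called against vector, HSPA1B and HSPB1 higher (10.8% of all genes) and HSP90AA1 and HSPH1 lower (9.58% of all genes), with a median of -0.06 against 0.01. SLC22A15_OE was compared with SLC22A10_OE directly as well, and 8 genes were higher (30.8% of all genes), HSPB1 was lower (32.1% of all genes) and HSP90AB1 was not called. Groups did not overlap for all 10 genes in SLC22A10_OE against vector (69.2% of all genes), for 5 in SLC22A15_OE against vector (34.7% of all genes) and for all 10 between the overexpressing lines (67.4% of all genes). The comparisons share libraries and are not independent of one another. All log2 fold changes are differences between group means of log2(CPM + 1), where CPM is reads scaled to a library of about 1000000, and this scale understates the change of genes of a few CPM.

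**Figure D1:**
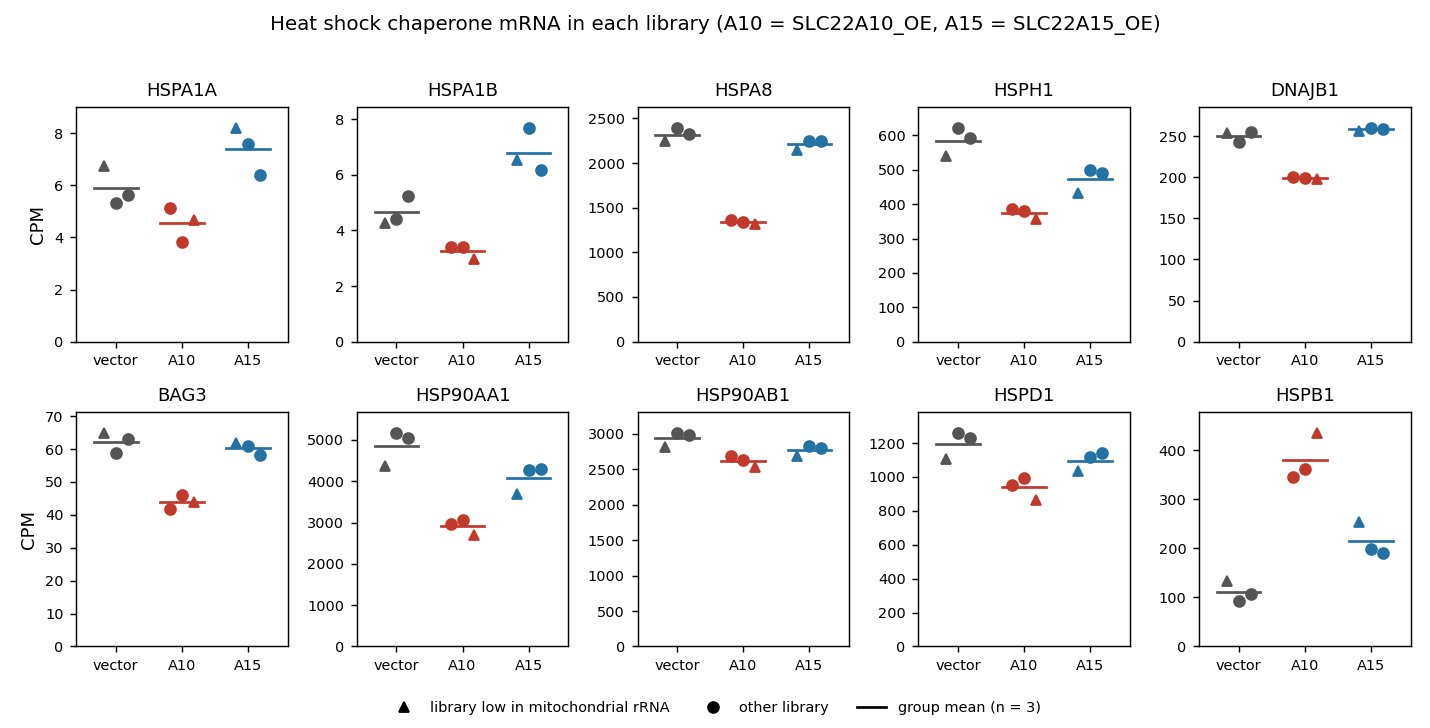
CPM of each gene (vertical axes, linear from 0, each panel with its own range) in the 3 libraries of each group, with bars at the group means; triangles mark the library of each group with little mitochondrial rRNA. SLC22A10_OE (A10) is the lowest group for 9 genes and the highest for HSPB1, and SLC22A15_OE (A15) lies near vector for HSPA8, DNAJB1 and BAG3.

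HSPA8 encodes HSC70, the constitutive cytosolic HSP70. Its level was 2249, 2389 and 2322 CPM in vector libraries 1 to 3, 1359, 1336 and 1320 CPM in SLC22A10_OE and 2141, 2247 and 2252 CPM in SLC22A15_OE. The 3 SLC22A10_OE libraries lay far below all others, and the other groups overlapped. Its mean was 1.73-fold lower in SLC22A10_OE than in vector, a log2 fold change of -0.79 (SE 0.04, limma adjusted p = 4.00e-09), the largest fall among the 10 genes. In SLC22A15_OE the log2 fold change was -0.07 (adjusted p = 0.289).

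HSPA1A and HSPA1B are neighbouring genes on chromosome 6 that encode nearly the same protein, HSP70, the chaperone whose mRNA rises most sharply on heat shock in many cells. Of the 150-base stretches of the HSPA1A transcript, 67.1% occur letter for letter in HSPA1B, and of those of HSPA1B 66.0% occur in HSPA1A, while no other gene of the set shared more than 1.04% with any gene. No source used here says how reads that fit both were assigned, or whether they were counted at all. The split between the genes is therefore uncertain, and so is the level of each and of their sum. HSPA1B also shares 36.5% of its exon bases with AL671762.1 on the same strand. Upstream of their starts the genes are close copies as well, with 14 differences in 249 compared bases (94.4% identical). The bases from 250 to 80 before each start, at chr6:31815293-31815463 and chr6:31827488-31827658, both on the plus strand, show the copy and the single 2-unit match, in capitals.

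HSPA1A: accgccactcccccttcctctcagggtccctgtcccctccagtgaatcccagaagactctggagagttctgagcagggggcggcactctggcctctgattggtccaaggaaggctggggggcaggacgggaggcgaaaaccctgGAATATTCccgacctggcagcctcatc
HSPA1B: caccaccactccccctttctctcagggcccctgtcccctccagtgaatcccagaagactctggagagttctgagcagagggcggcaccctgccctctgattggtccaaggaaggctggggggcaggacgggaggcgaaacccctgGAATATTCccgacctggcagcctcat

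As counted, both genes were at a few CPM in every library, far below HSPA8. HSPA1B stood at 4.28, 4.42 and 5.25 CPM in vector, 3.41, 3.41 and 2.99 in SLC22A10_OE and 6.54, 7.67 and 6.17 in SLC22A15_OE. No group overlapped another, and HSPA1B was the only gene of the 10 called in opposite directions against vector, although HSPA1A was too when the fit had a term for libraries low in mitochondrial rRNA (adjusted p = 0.0321 in SLC22A15_OE). It fell in SLC22A10_OE by 0.40 on the log2 scale (SE 0.11, limma adjusted p = 0.00515) and rose in SLC22A15_OE, by 0.46 (SE 0.11, adjusted p = 0.00792). HSPA1A stood at 6.74, 5.32 and 5.65 CPM in vector, 5.12, 3.84 and 4.68 in SLC22A10_OE and 8.19, 7.59 and 6.40 in SLC22A15_OE. Its fall in SLC22A10_OE was smaller, with a log2 fold change of -0.32 (SE 0.12, adjusted p = 0.0338), and its value in SLC22A15_OE was 0.28 (adjusted p = 0.126), where 1 SLC22A15_OE library lay below the highest vector library. The call of HSPA1A in SLC22A10_OE did not survive leaving out any 1 of vector libraries 1 and 3 and SLC22A10_OE libraries 2 and 3, with adjusted p from 0.0502 to 0.150. The sum of both genes does not depend on how counted reads were split between them, but would lack any shared reads left uncounted. It was 10.5 ± 0.708 CPM in vector, 7.81 ± 0.656 in SLC22A10_OE and 14.2 ± 1.42 in SLC22A15_OE (SD, n = 3), with no overlap between groups. Between the overexpressing lines the difference was 0.60 for HSPA1A (adjusted p = 0.000837) and 0.87 for HSPA1B (adjusted p = 1.61e-05), both higher in SLC22A15_OE.

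The log2 ratio of HSPA1A plus HSPA1B to HSPA8 was higher in both overexpressing lines, -7.78 ± 0.139 in vector, -7.42 ± 0.106 in SLC22A10_OE and -7.29 ± 0.169 in SLC22A15_OE (SD, n = 3). Neither line overlapped vector, and the exact two-sided permutation p was 0.1 for each, the smallest that 3 libraries against 3 can give (0.12 after Benjamini-Hochberg adjustment over 6 ratio tests). The lines overlapped each other (exact p = 0.3). The level of this ratio would be too low if reads shared by HSPA1A and HSPA1B were not counted.

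DNAJB1 and BAG3, which work with HSP70, both fell in SLC22A10_OE. DNAJB1, the J-domain protein HSP40 that delivers clients to HSP70, stood at 254, 243 and 255 CPM in vector, 200, 199 and 198 in SLC22A10_OE and 257, 259 and 259 in SLC22A15_OE. Its SLC22A10_OE libraries lay below every other library. The log2 fold change was -0.33 (SE 0.04, limma adjusted p = 8.51e-06) in SLC22A10_OE and 0.04 (adjusted p = 0.486) in SLC22A15_OE. BAG3, a nucleotide exchange factor that links HSP70 to autophagy, stood at 64.8, 59.0 and 63.0 CPM in vector, 41.8, 46.0 and 43.8 in SLC22A10_OE and 61.9, 60.9 and 58.1 in SLC22A15_OE. It fell in SLC22A10_OE, with a log2 fold change of -0.50 (SE 0.06, adjusted p = 7.12e-06), and in SLC22A15_OE its libraries overlapped vector (-0.04, adjusted p = 0.651).

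HSPH1 encodes HSP105, an HSP110 protein that acts as a nucleotide exchange factor and disaggregase with HSP70. Its level was 539, 620 and 593 CPM in vector, 384, 380 and 356 in SLC22A10_OE and 432, 498 and 491 in SLC22A15_OE. The groups did not overlap, with SLC22A15_OE between the others. HSPH1 fell in both lines, by 0.64 (SE 0.06, limma adjusted p = 1.54e-06) and by 0.30 (SE 0.06, adjusted p = 0.00413) on the log2 scale. SLC22A15_OE was higher than SLC22A10_OE by 0.34 (adjusted p = 0.000452).

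Both cytosolic HSP90 genes fell in SLC22A10_OE. HSP90AA1, the stress-inducible HSP90 alpha, stood at 4376, 5163 and 5052 CPM in vector, 2973, 3071 and 2693 in SLC22A10_OE and 3689, 4261 and 4288 in SLC22A15_OE. All 3 groups were apart, in the order vector, SLC22A15_OE, SLC22A10_OE. HSP90AA1 was 1.67-fold lower in SLC22A10_OE (log2 fold change -0.74, SE 0.08, limma adjusted p = 2.06e-06) and 1.19-fold lower in SLC22A15_OE (-0.25, SE 0.08, adjusted p = 0.0305). The second of these calls was lost without vector library 2 or 3 or SLC22A15_OE library 1, with adjusted p from 0.112 to 0.120. HSP90AB1, the constitutive HSP90 beta, stood at 2817, 3008 and 2984 CPM in vector, 2680, 2628 and 2537 in SLC22A10_OE and 2680, 2828 and 2805 in SLC22A15_OE. It was 1.12-fold lower in SLC22A10_OE (-0.17, SE 0.04, adjusted p = 0.00455), the smallest change of the 10 genes there. That log2 fold change was -0.10 with the GC trend taken out and -0.29 with libraries centred on their median, and was called in both. Its value in SLC22A15_OE was -0.08 (adjusted p = 0.216). The log2 ratio of HSP90AA1 to HSP90AB1 was 0.725 ± 0.0781 in vector, 0.154 ± 0.0694 in SLC22A10_OE and 0.555 ± 0.0821 in SLC22A15_OE (SD, n = 3). No group overlapped another in this ratio, and each of the 3 exact two-sided permutation tests gave the smallest possible p, 0.1.

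HSPD1 encodes HSP60, the chaperonin of the mitochondrial matrix. It stood at 1104, 1258 and 1230 CPM in vector, 954, 995 and 866 in SLC22A10_OE and 1033, 1119 and 1139 in SLC22A15_OE. Its SLC22A10_OE libraries lay below all others, and those of SLC22A15_OE overlapped vector. HSPD1 fell in SLC22A10_OE, with a log2 fold change of -0.35 (SE 0.06, limma adjusted p = 0.000278). In SLC22A15_OE the value was -0.13 (adjusted p = 0.194). HSPE1, its co-chaperonin HSP10, is transcribed the other way from a start 104 bases from that of HSPD1 in the RefSeq table. It stood at 84.0 ± 7.45 CPM in vector and 60.2 ± 7.34 in SLC22A10_OE (SD, n = 3), a log2 fold change of -0.48 (adjusted p = 0.000569), so that both genes of the pair fell. HSPD1 shares 6.62% of its exon bases with HSPE1 on the opposite strand. The kit kept strand, but no source used here says whether the counting did.

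HSPB1 encodes HSP27, a small heat shock protein that holds unfolded proteins without using ATP. It stood at 134, 91.8 and 106 CPM in vector, 346, 361 and 435 in SLC22A10_OE and 254, 199 and 189 in SLC22A15_OE. No group overlapped another. HSPB1 rose 3.44-fold in SLC22A10_OE (log2 fold change 1.78, SE 0.13, limma adjusted p = 1.10e-07) and 1.93-fold in SLC22A15_OE (0.95, SE 0.13, adjusted p = 0.000186), the largest change of the set in both. It was lower in SLC22A15_OE than in SLC22A10_OE by 0.83 (the log2 fold change was -0.83, adjusted p = 0.000129). In the authors' deposited table the log2 fold change of HSPB1 against vector was 1.78 in SLC22A10_OE and 0.95 in SLC22A15_OE.

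HSPB1 lies on chromosome 7 from 76302673 to 76304292 (GRCh38), among genes that were also higher. There were 75 other tested genes within 5 Mb on each side. In SLC22A10_OE 44 of them were called higher and 6 lower, with a median log2 fold change of 0.34. Over all genes tested 34.7% were higher and 32.5% lower there. In SLC22A15_OE 60 of the 75 were called higher and 3 lower, with a median of 0.50, where 10.8% and 9.58% of all genes tested were. The medians over the 711 tested genes of chromosome 7 were 0.13 and 0.16, in the same order. HSPB1 stood above the median of its neighbours in both lines, with 6 of the 75 above it in SLC22A10_OE and 4 in SLC22A15_OE. Between the overexpressing lines the neighbours' median was 0.07, where HSPB1 was -0.83. The part of the region in the level of HSPB1 was not tested. DNAJB1 went against its surroundings on chromosome 19, where 226 neighbours had a median of 0.22 in SLC22A10_OE and DNAJB1 was -0.33. Around the other 8 genes the neighbours' medians in that comparison lay between -0.16 and 0.07.

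**Figure D2:**
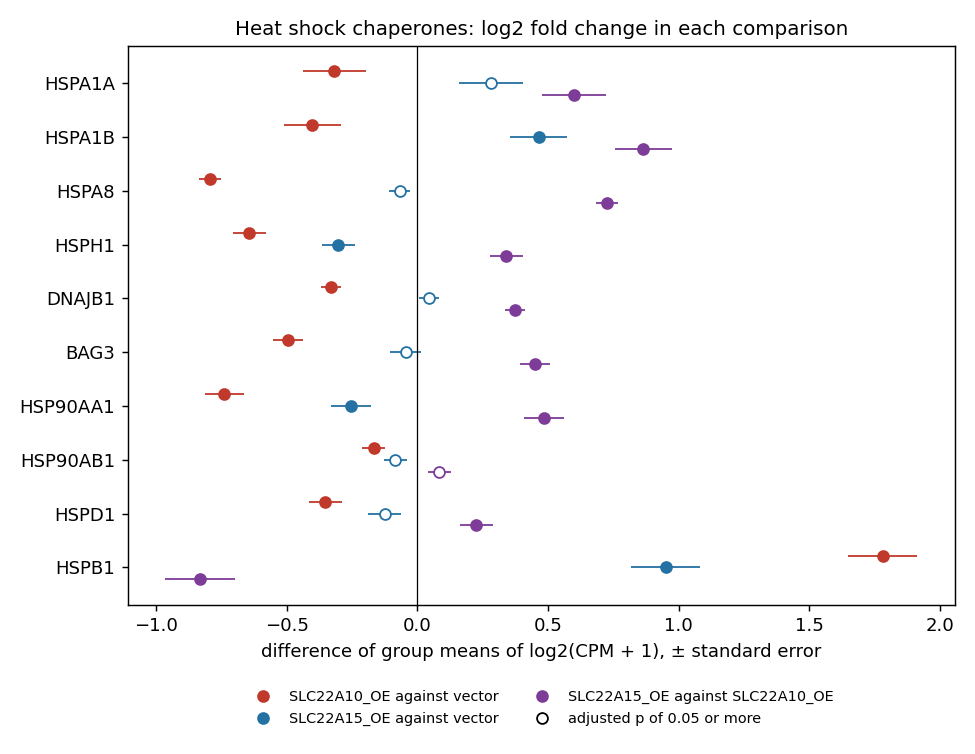
Difference of group means of log2(CPM + 1) for each gene and comparison, with its standard error; filled points are called at an adjusted p under 0.05. The 9 genes that were lower in SLC22A10_OE against vector run from -0.79 (HSPA8) to -0.17 (HSP90AB1), and HSPB1 stands alone at 1.78.

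Levels between genes can be set side by side per kilobase of annotated exon. In vector HSP90AB1 (985 ± 34.8 CPM per kb, SD, n = 3) and HSP90AA1 (927 ± 81.2) led and did not differ beyond their spread, followed by HSPA8 (478 ± 14.5) and HSPD1 (282 ± 19.4). HSPH1 (69.6 ± 4.91), DNAJB1 (68.3 ± 1.80) and HSPB1 (67.8 ± 13.2) could not be ordered, and BAG3 (22.7 ± 1.09), HSPA1A (2.38 ± 0.299) and HSPA1B (1.84 ± 0.209) came last. In SLC22A10_OE HSPB1 (233 ± 29 CPM per kb) overlapped in its spread with HSPD1 (221 ± 15.6), and HSP90AB1 (878 ± 24.3) stood above HSP90AA1 (555 ± 37.3). These levels rest on exons merged over all transcripts, which lowers the level of genes with long, rarely used exons. The places of HSPA1A and HSPA1B rest as well on how reads that fit both were treated, which is not known.

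Within each group 1 library stood apart. In vector library 1, SLC22A10_OE library 3 and SLC22A15_OE library 1 the mitochondrial rRNAs took 0.00958% to 0.0151% of reads, against 0.0454% to 0.0843% in the other 6. In each group that library was the lowest of the 3 for HSPA8, HSP90AA1, HSP90AB1, HSPH1 and HSPD1 and the highest for HSPB1. HSPB1 in it was 0.44 (vector), 0.30 (SLC22A10_OE) and 0.38 (SLC22A15_OE) above the mean of its partners on the log2 scale, and HSP90AA1 lay at -0.22, -0.17 and -0.21. These libraries also differed from their partners by GC content: over 13986 genes, which are not independent replicates, the difference correlated with transcript GC at r = 0.660, 0.518 and 0.597. HSPB1 has 64.3% GC in its transcript, near the 95th percentile of the genes tested (64.4%), and HSPH1 has 40.0% and HSP90AA1 45.2%, below the median of 48.7%. Every group holds 1 such library, and within both kinds of library all 10 genes kept the sign of the pooled difference in all 3 comparisons. With the GC trend taken out of each library, HSPB1 was 1.55 and 0.87 higher than vector in SLC22A10_OE and SLC22A15_OE, HSPA8 was -0.72 and -0.04, and the counts of genes called were 10, 4 and 9 again. With a term for those 3 libraries, which narrows the spread, 8 of the 10 genes were called in SLC22A15_OE against vector, 3 higher and 5 lower, in place of 4. Calls rose over all 14554 genes tested as well, from 1572 higher and 1394 lower to 2868 higher and 2740 lower.

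**Figure D3:**
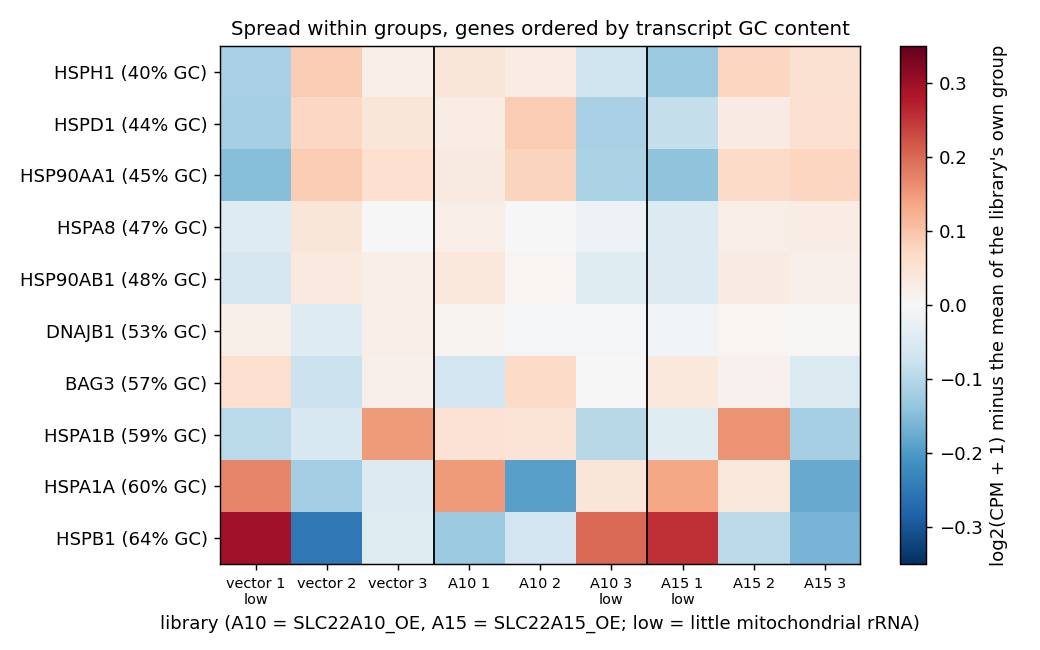
Each square gives 1 gene in 1 library as log2(CPM + 1) minus the mean of the 3 libraries of its group, with genes ordered from low to high transcript GC content and lines between groups. The 3 libraries marked low are below their groups for the 5 genes from HSPH1 to HSP90AB1 and above them for HSPB1.

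The wider machinery was described with 11 lists of 124 further genes, of which 115 were matched by symbol and 113 were tested. In SLC22A10_OE 28 were called higher and 51 lower, where 34.7% and 32.5% of all genes tested were, and in SLC22A15_OE 5 (4.42%) were higher and 14 (12.4%) lower, where 10.8% and 9.58% of all genes tested were, so the share of lower calls there is near the background. The TRiC chaperonin, which folds actin and tubulin, had 7 of 8 subunits lower in SLC22A10_OE, with a list median of -0.36. Its largest falls were those of CCT2, from 337 ± 26.7 to 207 ± 14.1 CPM (SD, n = 3), and CCT6A, from 601 ± 29.9 to 381 ± 13.5 CPM, and CCT5 and TCP1 fell too, with log2 fold changes of -0.56 and -0.41. In SLC22A15_OE 2 subunits were lower, CCT6A (-0.22) and CCT4 (-0.13). With the GC trend taken out 6 of 8 subunits were lower in SLC22A10_OE, with a list median of -0.30. Over all genes 4877 of 13986 were then lower and 5543 higher. The counts of the other lists with the GC trend taken out are to be read against these as well.

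HSP90 co-chaperones had 11 of 17 (64.7%) lower and 3 (17.6%) higher in SLC22A10_OE, where 32.5% and 34.7% of all genes tested were. With the GC trend taken out 11 were lower and 4 higher. CHORDC1, an HSP90 partner, fell most, from 97.5 ± 9.48 to 40.3 ± 5.26 CPM, a log2 fold change of -1.26 (limma adjusted p = 1.48e-07), and STIP1, the adaptor between HSP70 and HSP90, fell by 0.54. FKBP4, an immunophilin of steroid receptor complexes, fell by 0.43. Among those that rose were FKBP8, from 114 ± 12.6 to 252 ± 17.6 CPM (1.14), and UNC45A (0.37). The promoter windows of 4 genes of the lists were looked at, and they were chosen after their values were seen. That of CHORDC1 held a run of overlapping units, at chr11:90223083-90223112 on the minus strand, and that of DNAJB6 a 3-unit match, at chr7:157336865-157336894 on the plus strand. That of DNAJA1, which fell too (-0.86, against -0.83 for DNAJB6), held a single 2-unit match, at chr9:33025064-33025093 on the plus strand, and that of HSPE1 neither form.

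CHORDC1: ccgGAAAATTCGCGAAGGTTCCTGAAacgc
DNAJB6: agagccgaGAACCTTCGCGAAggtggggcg
DNAJA1: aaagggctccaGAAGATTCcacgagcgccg

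Of 17 J-domain proteins 6 (35.3%) were lower and 2 (11.8%) higher in SLC22A10_OE, where 32.5% and 34.7% of all genes tested were. With the GC trend taken out the counts were 7 and 7, and the list's median moved from -0.03 to 0.04. DNAJA1, a general HSP70 partner, fell from 266 ± 21.9 to 146 ± 7.0 CPM (log2 fold change -0.86, limma adjusted p = 2.10e-07) and DNAJB6, which holds back polyglutamine aggregates, fell from 106 ± 1.73 to 59.6 ± 3.83 CPM (-0.83). DNAJC9, a histone chaperone, fell by 0.62, and DNAJC18 rose, by 0.78. In SLC22A15_OE DNAJB6 (-0.28), DNAJC18 (-0.36) and DNAJC6 (-0.83) were lower. The list of other HSP70 and HSP110 genes had 4 of 8 (50%) lower in SLC22A10_OE, HSPA14 (-0.54), HSPA4 (-0.32), HSPA12B (-0.48) and HSPA6 (-0.47). HSPA2 was higher (0.42), 12.5% of the list. Over all genes tested 32.5% were lower and 34.7% higher. HSPA2 reached 1 CPM only in the SLC22A10_OE libraries, and HSPA6 in no SLC22A10_OE library, so each passed the filter only through groups where it was higher. In SLC22A15_OE HSPA4L was called higher (0.35) and HSPA13 lower (-0.22). Of the small heat shock proteins beside HSPB1 only HSPB6 and HSPB11 were tested, and HSPB6, at 1.42 ± 0.398 CPM in vector, was lower in SLC22A10_OE (-0.48, adjusted p = 0.0110), where no library of it reached 1 CPM, so it too passed the filter only through the groups where it was higher.

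Among exchange factors and other HSP70 co-chaperones, 3 of 8 (37.5%) were lower and 3 (37.5%) higher in SLC22A10_OE. These shares are near the 32.5% and 34.7% of all genes tested. Lower were BAG2 (-0.85), BAG5 (-0.44) and BAG1 (-0.40), and higher were BAG4 (0.68), BAG6 (0.47) and ST13 (0.39). With the GC trend taken out 5 were lower and 3 higher. BAG2 (-0.29) and BAG4 (0.38) were called in the same directions in SLC22A15_OE. Mitochondrial chaperones and proteases had 5 of 13 (38.5%) lower, near the 32.5% of all genes, and 2 higher, or 7 and 3 with the GC trend taken out. Lower were, among others, the HSP70 of the matrix, HSPA9 (-0.35), its exchange factors GRPEL1 (-0.65) and GRPEL2 (-0.36) and its J-domain partner DNAJA3 (-0.53). Prefoldin subunits and relatives had 4 of 9 (44.4%) lower in SLC22A10_OE, PDRG1 (-0.45), VBP1 (-0.30), PFDN2 (-0.27) and URI1 (-0.19). PFDN5 (0.40) and PFDN6 (0.30) were higher (22.2%).

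The counterparts in the endoplasmic reticulum had 6 of 9 genes (66.7%) higher and 2 (22.2%) lower in SLC22A10_OE. Over all genes tested 34.7% were higher and 32.5% lower. With the GC trend taken out 7 were higher and 1 lower, where 5543 of 13986 genes were higher and 4877 lower. HSPA5, the HSP70 of that compartment (BiP), rose from 588 ± 32.6 to 714 ± 34.4 CPM (log2 fold change 0.28, limma adjusted p = 0.000548), and HSP90B1, its HSP90 (GRP94), from 471 ± 53.9 to 631 ± 37.3 CPM (0.43, adjusted p = 0.000973). DNAJB9 (0.61) and SIL1 (0.50) rose as well. In SLC22A15_OE 0 of the 9 were called by limma, 0 at an unadjusted p under 0.05, and 0 by edgeR or DESeq2 on the recovered reads, with 1 called once the GC trend was taken out, and HSPA5 and HSP90B1 were at -0.08 and -0.09 there.

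HSF1, the main regulator of the response, stood at 63.5 ± 6.75 CPM in vector, 75.2 ± 2.87 in SLC22A10_OE and 78.0 ± 5.14 in SLC22A15_OE (SD, n = 3). Its log2 fold changes were 0.24 (limma adjusted p = 0.0103) and 0.29 (adjusted p = 0.0125). The first was 0.12 (adjusted p = 0.139) with libraries centred on their median, 0.01 (adjusted p = 0.878) with the GC trend taken out and lost its call without vector library 2, and the second lost its call without vector library 2 or 3. HSF2 was not called in either line (33.2 ± 3.24, 35.4 ± 1.77 and 33.3 ± 2.16 CPM). HSF4, from 9.64 ± 2.19 to 19.3 ± 0.905 CPM, and HDAC6, a deacetylase of HSP90, from 62.0 ± 2.01 to 90.5 ± 5.59 CPM, rose in SLC22A10_OE, and the HSF1 regulators VCP (-0.35) and IER5 (-0.47) fell. Of 20 tested genes known from other work as induced through HSF1, 11 (55%) were lower and 6 (30%) higher in SLC22A10_OE. Over all genes tested 32.5% were lower and 34.7% higher. This list repeats genes counted in the lists above, among them CHORDC1, STIP1, FKBP4, DNAJA1, HSPE1 and HSPA4L, so its counts are not a separate result. With the GC trend taken out 11 were lower and 8 higher, where 4877 of 13986 genes were lower and 5543 higher. With median centring 12 were lower and 4 higher, where 6233 of 14554 genes were lower and 3875 higher. JMJD6 fell by 0.77, while CLU, a secreted chaperone, rose from 13.8 ± 1.73 to 41.8 ± 0.999 CPM (1.54) and MLLT11 from 6.26 ± 0.558 to 16.0 ± 0.623 CPM (1.23). In SLC22A15_OE 4 of the 20 (20%) were lower, where 9.58% of all genes tested were. CLU (0.71) and HSPA4L were higher there (10%, against 10.8% of all genes tested).

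**Figure D4:**
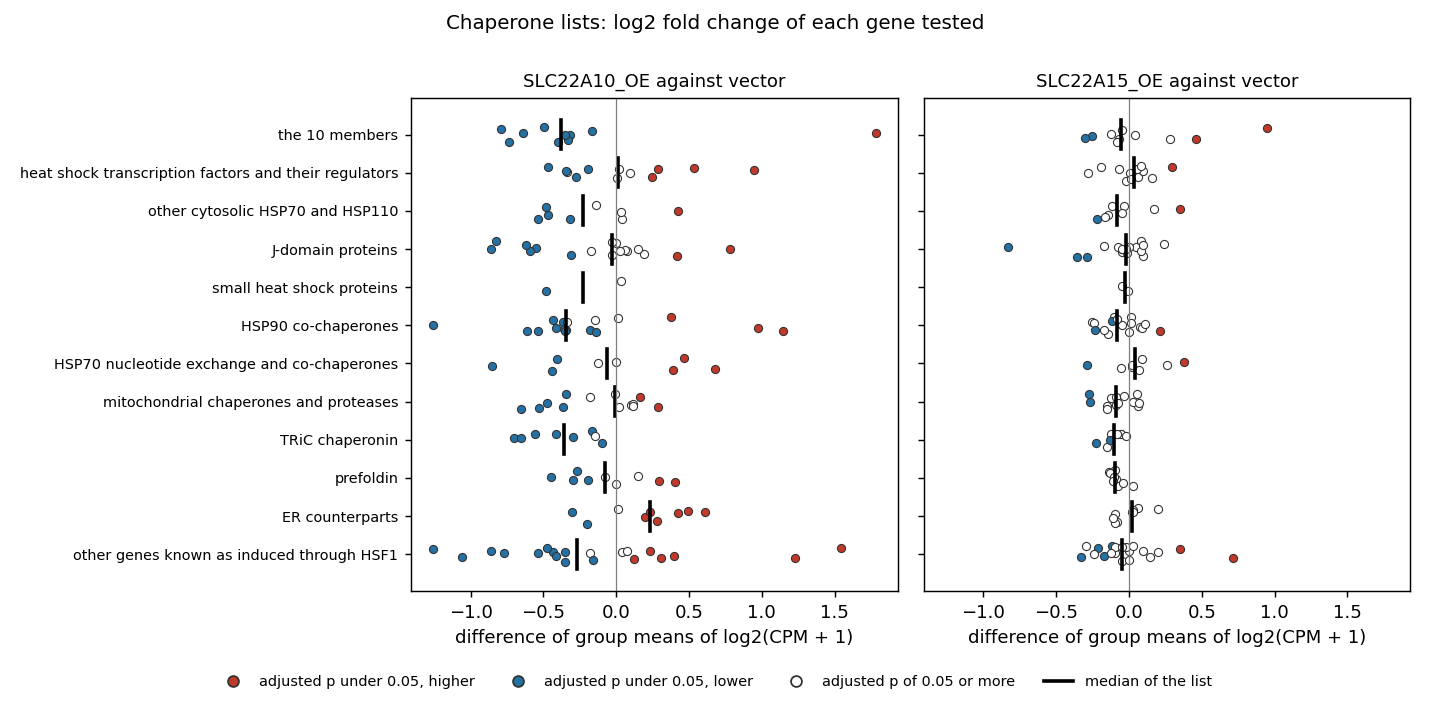
Difference of group means of log2(CPM + 1) for each tested gene of the 10 members and of the 11 wider lists, in each overexpressing line against vector, coloured where the adjusted p was under 0.05, with a bar at the median of each list. In SLC22A10_OE the medians of the 10 members (-0.38), the TRiC chaperonin (-0.36) and the HSP90 co-chaperones (-0.34) are below 0 and that of the ER counterparts (0.23) is above it.

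The scale of the libraries bears on the share of genes called in each direction. With each library centred on its median, log2 fold changes moved by -0.12 in SLC22A10_OE, -0.03 in SLC22A15_OE and 0.09 between the lines. In SLC22A10_OE 3875 genes were then higher and 6233 lower, where 5047 and 4728 were before, and between the lines 5798 were higher and 3713 lower, where 4484 and 4674 were. The 10 members kept their counts of 1 higher and 9 lower, and 2 and 2, against vector, the TRiC chaperonin had 8 of 8 subunits lower in SLC22A10_OE and the ER counterparts 4 higher and 2 lower. HSP90AB1 was then called higher in SLC22A15_OE than in SLC22A10_OE (0.18, limma adjusted p = 0.00477).

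Genes whose log2(CPM + 1) followed that of HSPA1A plus HSPA1B most closely over the 9 libraries, among 7951 genes with a mean of at least 20 CPM, were SSH1 (Pearson r = 0.993), MTA2 (0.972), HIST1H2BB (0.972), HIST2H2BF (0.970) and NCAPD3 (0.969). With group means taken out they were BRAP (0.986), SLC22A5 (0.948), SSH1 (0.942), ZNF346 (0.934) and STK10 (0.926). These are the highest of many values over few libraries that fall into 3 groups, and describe these libraries only.

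As checks of the labels, SLC22A10 was at 80.5, 91.4 and 84.4 CPM in its own line, with 1 read in all 3 vector libraries together and none in SLC22A15_OE, and SLC22A15 was at 75.9 ± 2.48 CPM in its own line, 6.11 ± 0.571 in vector and 3.84 ± 0.357 in SLC22A10_OE (SD, n = 3). Of 7 markers of pancreatic duct epithelium, KRT8, KRT18, KRT19 and SOX9 were above 10 CPM on average, KRT7 was at 0.289 CPM, and EPCAM and CFTR were not among the genes listed. The summed level of the 5 listed duct markers was 436 to 475 CPM in vector, 532 to 593 in SLC22A10_OE and 287 to 321 in SLC22A15_OE, so it moved with the groups. Of 4 fibroblast markers only COL1A1 was listed, at 0.398 to 0.677, 4.24 to 5.43 and 0.299 to 0.603 CPM in the same order, of 3 endothelial markers only CDH5, at 0.901 to 1.45, 6.24 to 7.65 and 2.52 to 2.86 CPM, and of 3 immune markers only CD68, at 15.5 to 19, 23.3 to 24.6 and 20.2 to 20.4 CPM. Of 4 islet markers only CHGA was listed, at no more than 1.06 CPM, and of 4 acinar markers none. The part of any of these in the levels of the chaperones was not tested. Library totals ran from 28.4 to 42.9 M reads (1 M is 1000000). A gene at 1 CPM held 27.8 to 43.4 reads, for a counting SD of 15.2% to 19%. The 2 ranges do not match exactly, as in SLC22A10_OE library 3 (28.4 M reads, 27.8 reads at 1 CPM), so CPM was not scaled by the read total alone.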

How the data were processed

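Expression was deposited by the authors as CPM, 1 value per gene in each of 9 libraries. They also deposited, per the file headers, tables of each overexpressing line against vector with a log2 fold change, a mean log2 CPM, an F score, a p-value, an FDR and a −log10 of the FDR. The submitters' processing notes name edgeR and list hg38 and mm9 without a role. No source used here names the aligner or the counting program. The CPM values were whole multiples of 1 read, and 100% of values came out within 0.1 read of a whole number.

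The members, the wider lists and the tests were chosen with earlier results of these data known. Because the unit was CPM, the main test was limma 3.58.1 (R 4.3.3) with a mean trend on log2(CPM + 1), a pseudocount of 1, on 14554 genes with at least 1 CPM in at least 3 libraries. All 9 libraries entered 1 fit with 3 contrasts, and p-values were adjusted by Benjamini-Hochberg at 0.05. Of the other genes, the text names SLC22A10, SLC22A15, HSF1, HSF2, up to 4 called genes of each list by smallest adjusted p against vector, and the 5 most like HSPA1A plus HSPA1B; CCT4, DNAJC6, HSPA6, HSPA2, HSPA13, HSPE1, HSPB11, UNC45A, BAG1, BAG6, PFDN2 and PFDN6 were added after their values were seen, and 1 gene of the lists is not reported here. On recovered reads, edgeR 4.0.16 called 4950 genes higher and 4792 lower in SLC22A10_OE, and 1533 and 1449 in SLC22A15_OE. DESeq2 1.42.0, another pseudocount, no filter, median centring, the column number as a replicate block, a term for low mitochondrial rRNA and leaving out each library were further alternatives, and the GC trend and leaving out the 3 low libraries were added after the data were seen. The procedure was tested on simulated data. Library columns are numbered 1 to 3, which could not be matched to the labels' suffixes, and the numbers did not pair the libraries. Ratios of 2 genes had exact permutation tests. Gene positions and promoters came from RefSeq, and transcript GC, exon lengths and exon overlaps from GENCODE 29. The self-overlap of transcripts was measured in windows of 150 bases.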

Additional observations from a re-analysis of the deposited data

How the results depend on the processing

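Of the 10 members, none reversed its direction under any alternative in any of the 3 comparisons. In SLC22A10_OE against vector all 10 were called under each alternative other than those that left out the libraries named above for HSPA1A, and without the 3 libraries low in mitochondrial rRNA, where HSPA1A was at -0.25 (adjusted p = 0.0827). In SLC22A15_OE against vector the count of members called was 4 in the main fit and 8 with a term for low mitochondrial rRNA. Without the 3 libraries low in mitochondrial rRNA HSP90AB1 (limma adjusted p = 0.0410) and HSPD1 (0.00200) were called as well. HSPD1 was also called without vector library 1 (limma adjusted p = 0.0366), and HSP90AA1 lost its call without the libraries named above for it. The wider lists had 19 of 113 tested genes called there, against 46 with that term, 36 without the 3 libraries low in mitochondrial rRNA, 30 with the GC trend taken out of each library, and 12 to 23 when 1 library at a time was left out. Calls over all genes rose too. Of 14554 genes, 1572 were higher and 1394 lower in the main fit, 2868 and 2740 with that term, and 2337 and 2157 without the 3 libraries. With the GC trend taken out, 2434 of 13986 genes were higher and 2132 lower. With the column number as a replicate block, 10, 4 and 9 members and 78, 17 and 71 list genes were called, against 10, 4 and 9 members and 79, 19 and 70 list genes without it. Libraries with the same number correlated in their deviations from group means at -0.411 to 0.566, so the numbers do not pair them, and the cause of the changed counts was not tested. HSPA1A and HSPA1B, at about 5 CPM, are the members whose counts limit precision most.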
